A study of Mus musculus with 57 samples.

Results

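Cirbp and Rbm3 are the mouse genes for the cold-inducible RNA-binding protein and RNA-binding motif protein 3. They were taken as the rows of those names, 2 of 24394 named genes, in a table of normalised counts from visual cortex. The table held 57 libraries of total RNA from wild-type mice, made with MARS-Seq, a method that reads the 3′ ends of transcripts. All mice were kept in 12 h of light and 12 h of darkness. In the light arm the lights came on as usual on the day of collection, and tissue was taken by day at ZT1, ZT3, ZT7.5 and ZT11.5 and by night at ZT13, ZT15 and ZT18, where zeitgeber time (ZT) counts hours after the usual time of lights on. In the dark arm the lights stayed off on that day, and tissue was taken at the same 7 times and at ZT0, which precedes any difference between the arms. The light arm had 27 libraries and the dark arm 30, with 4 per time except for 3 at light ZT18, dark ZT1 and dark ZT13. The labels number biological replicates without saying whether each was 1 mouse, and give no strain, age or sex. The comparisons address whether the level of each gene moved over the day, and whether light on that day altered it.

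Cirbp and Rbm3 are small proteins that each bind RNA through a single RNA-recognition motif, followed by a glycine-rich tail. Mild cooling raises the level of both, whereas heat shock raises chaperones instead, and the daily cycle of body temperature is known to drive a daily cycle of Cirbp in mouse cells and liver. Cirbp has been described in cultured fibroblasts as a binder of Clock mRNA that alters the choice of polyadenylation sites, and Rbm3 in mouse brain as a protein that promotes translation and the regrowth of synapses after cooling. These roles are background. Body or brain temperature was not part of the data.

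In the GENCODE annotation of GRCm38, Cirbp (ENSMUSG00000045193) lies on chromosome 10 from 80165985 to 80172786 on the plus strand, with 7 transcripts. Rbm3 (ENSMUSG00000031167) lies on the X chromosome from 8138975 to 8145880 on the minus strand, with 11 transcripts. An antisense gene, Rbm3os, overlaps the 5′ end of Rbm3 by 452 bases on the opposite strand. Rbm3os held at most 3 reads, or a normalised count of 3.68, in the library where it was highest. The sources used here do not state whether the counting used strand, and reads in the overlap cannot be assigned with certainty.

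The sequence before a start of Cirbp is shown because a mild cold-responsive octamer, TCCCCGCC, has been described in the 5′ flank of the mouse gene. RefSeq (GRCm38.p6) gives 2 starts for Cirbp, and the stretch below belongs to the first of them, at base 80167839 of the plus strand. It runs along chr10:80167589-80167777 on the plus strand, 189 bases that begin 1604 bases inside the GENCODE span of Cirbp. Of the 7 GENCODE transcripts, 1 starts further upstream and holds the stretch in an intron, and 6 start after it. The stretch overlaps no annotated exon and stops where the UTR of the next transcript begins, and its capitals mark the octamer and the CCAAT boxes.

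Cirbp: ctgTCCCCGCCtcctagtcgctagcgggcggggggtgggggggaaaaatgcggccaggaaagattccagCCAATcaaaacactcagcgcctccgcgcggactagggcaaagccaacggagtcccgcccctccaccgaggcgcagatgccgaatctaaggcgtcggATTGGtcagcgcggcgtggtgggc

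The octamer begins 247 bases upstream of the start on the plus strand. Its letters, on either strand, occur in 4.64% of the 32851 windows of 250 bases before a RefSeq start. CCAAT boxes begin 181 bases upstream on the plus strand and 85 bases upstream on the minus strand, and 33.8% of windows hold at least 1 on either strand. An E-box (CACGTG, in 6.02% of windows), a cyclic AMP response element (TGACGTCA, in 1.55%) and a heat shock element core (GAANNTTC, in 6.69%) were searched on both strands and do not match within the 250 bases before this start. The matches are letters only and do not show binding.

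Depth ran from 1.64 to 4.31 M reads per library, with a median of 2.76 M. Cirbp was read with 126 to 568 reads per library (median 278), and Rbm3 with 8 to 64 (median 22). Counting alone would give a coefficient of variation of 5.95% for Cirbp and 21.4% for Rbm3. Within groups the observed values were 17.9% for Cirbp and 33.6% for Rbm3, so Rbm3 values carry more counting error. Normalised counts are per gene and are not compared between the genes.

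Some libraries stood apart. Xist, which coats the inactive X chromosome, exceeded a normalised count of 20 in 29 libraries. In 14 of 15 groups these were replicates 3 and 4, where present, and not replicates 1 and 2; at light ZT13 all 4 libraries exceeded it. Ttr, abundant in choroid plexus, ran from 53.5 to 20493, and Malat1, a long noncoding RNA kept in the nucleus, spanned 14.9 to 483. Excitatory neuron markers, among them Slc17a7, were detected for 8 of 8 genes and summed to 8023 to 13387 per library. In tissue RNA, fewer cells of a type and less RNA per cell cannot be told apart.

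Cirbp was low around the usual time of lights on and had higher group means from ZT7.5 on, whether or not the lights came on. Its highest group means were at ZT7.5 and ZT11.5 in the light arm and at ZT11.5 and ZT13 in the dark arm. With light it measured 186, 144, 158 and 146 at ZT1, 226, 187, 247 and 161 at ZT3, and 457, 451, 361 and 372 at ZT7.5. The 4 libraries of ZT7.5 lay above every library of ZT1 and ZT3. Later in that arm it measured 368, 377, 377 and 379 at ZT11.5, 438, 427, 224 and 213 at ZT13, 314, 368, 235 and 364 at ZT15, and 261, 354 and 220 at ZT18. The libraries of ZT11.5 lay close together, whereas those of ZT13 fell into a high pair and a low pair.

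Without light, Cirbp measured 188, 206, 163 and 214 at ZT0, 208, 148 and 174 at ZT1, and 229, 170, 167 and 195 at ZT3. These 11 libraries had the lowest values of the arm. It then measured 315, 307, 281 and 353 at ZT7.5, 459, 456, 456 and 370 at ZT11.5, 477, 511 and 337 at ZT13, 334, 297, 331 and 348 at ZT15, and 293, 330, 275 and 237 at ZT18. Every dark library from ZT7.5 on, the lowest being 237, lay above every dark library up to ZT3, the highest being 229.

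**Figure D1:**
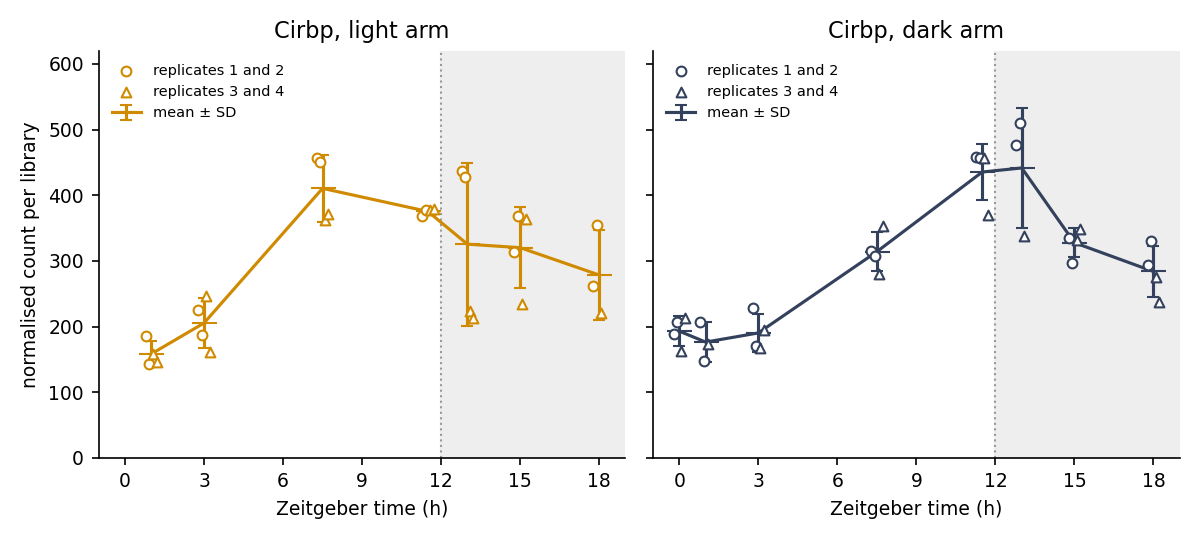
Normalised count of Cirbp in each library (circles, replicates 1 and 2; triangles, replicates 3 and 4) against zeitgeber time in hours, in the light arm on the left and the dark arm on the right, with the mean ± SD of each group; grey marks the time after the usual lights off at ZT12. The light arm peaks at a mean of 410 at ZT7.5 and the dark arm at 442 at ZT13, and at light ZT13 the circles (438 and 427) stand far above the triangles (224 and 213).

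The highest group mean of Cirbp was 2.59 times the lowest in the light arm (410 ± 50.7 at ZT7.5 and 158 ± 19.7 at ZT1, SD, n = 4 each). It was 2.5 times the lowest in the dark arm (442 ± 91.9 at ZT13 and 176 ± 30.0 at ZT1, SD, n = 3 each). These extremes were picked by their means and are descriptions. The change over the 7 light times passed limma's moderated F test with an adjusted p of 8.4e-08, and the change over the 8 dark times with 6e-08. Of all 10526 genes tested, 3.81% changed over the light times and 6.52% over the dark times at an adjusted p under 0.05. By the size of its p, Cirbp ranked 9 of 10526 over the light times and 1 of 10526 over the dark times.

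In the order of group means, most neighbours overlapped. Each light group's libraries overlapped those of the group next below it. Among dark groups 2 neighbouring pairs did not overlap: ZT15 (highest library 348) lay below ZT11.5 (lowest 370), and ZT18 (lowest 237) above ZT0 (highest 214).

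Among steps between neighbouring times, the step at ZT7.5 against ZT3 passed the test for Cirbp in each arm. In the light arm Cirbp averaged 410 at ZT7.5 and 205 at ZT3, a log2 difference of 1.01 ± 0.17 (SE; limma adjusted p = 0.0004), where 0.19% of genes rose. In the dark arm it averaged 314 at ZT7.5 and 190 at ZT3, a log2 difference of 0.73 ± 0.17 (SE; limma adjusted p = 0.035), where 0.124% of genes rose. The dark step was no longer called without a filter on low values (adjusted p = 0.089), nor when any single library of those groups other than dark ZT3 replicate 1 was left out (adjusted p from 0.06 to 0.12, log2 differences from 0.67 to 0.78).

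The later steps of Cirbp did not pass the test. Dark libraries averaged 435 at ZT11.5, against 314 at ZT7.5, a log2 difference of 0.47 (unadjusted p = 0.0069); a fit to the groups compared only called it (limma adjusted p = 0.029). It averaged 328 at ZT15, against 442 at ZT13, in the same arm, a log2 difference of -0.41 (unadjusted p = 0.027). The step from ZT0 to ZT1 gave a log2 difference of -0.28 (light arm) and -0.14 (dark arm), measured against the same ZT0 libraries and called in neither.

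A 24 h cosine described the course of Cirbp in each arm, on the assumption of that period for samples that span 18 h. With light its amplitude was 0.63 ± 0.08 on the log2 scale with a peak at ZT10.8 ± 0.45 h (SE; limma adjusted p = 4.9e-07), and in the dark arm 0.60 ± 0.06 with a peak at ZT12.1 ± 0.49 h (SE; limma adjusted p = 1.3e-09). Cirbp had the smallest p of the 10526 genes in each of these fits, which called 3.14% of genes for the light arm and 5.89% for the dark arm. The difference between the arms' cosines had an adjusted p of 0.82 (unadjusted p = 0.15), and no gene was called for such a difference by limma; 681 genes had an unadjusted p under 0.05. Counts for this difference by the other tools were not computed.

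Oligodendrocyte markers, which encode myelin proteins, also changed over the day. Of 6 markers 3 changed over the light times (Cnp, Mag and Mog), where 3.81% of all genes did, and 6 of 6 over the dark times, where 6.52% did. Their fitted peaks lay between ZT9.3 and ZT9.9 for those 3 in the light arm, and between ZT11.7 and ZT15.5 for the 5 called in the dark arm, in cosine fits that called 3.14% of all genes with light and 5.89% without. The summed level of the list had a highest group median of 22425 at ZT11.5 and a lowest of 17995 at ZT1 in the light arm. Among dark groups the highest median was 22017 at ZT15 and the lowest 14322 at ZT1. Over all libraries the sum ran from 13360 to 26936. No marker of the list was at 0. Within groups, the deviations of this sum and of Cirbp had a Pearson correlation of -0.01 over 57 libraries, a description. The part of these cells in the course of Cirbp was not tested.

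Rbm3 had its lowest group means at dark ZT0 and ZT3, and its highest at dark ZT13 and ZT18. With light it measured 18.2, 17.1, 20.9 and 16.5 at ZT1, 16.2, 18.7, 17.4 and 15.4 at ZT3, and 26.1, 24.3, 18.2 and 32.2 at ZT7.5. It measured 30.1, 22.3, 14.6 and 26.2 at ZT11.5, 49.3, 29.9, 13.8 and 11.9 at ZT13, 20.3, 24.9, 12.6 and 21.8 at ZT15, and 19.8, 38.3 and 20.5 at ZT18. The highest and the lowest value of Rbm3 in the light arm were thus both at ZT13, and the range of every group from ZT7.5 on overlapped that of ZT1.

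Without light, Rbm3 measured 15.6, 13.1, 11.0 and 11.4 at ZT0, 23.6, 21.8 and 19.9 at ZT1, and 17.2, 17.0, 13.2 and 12.8 at ZT3. The ZT1 libraries lay above those of ZT0 and of ZT3. It then measured 26.2, 22.4, 10.3 and 22.7 at ZT7.5, 21.1, 22.7, 39.4 and 22.7 at ZT11.5, 40.6, 24.1 and 32.1 at ZT13, 37.8, 24.9, 28.7 and 20.5 at ZT15, and 23.6, 23.3, 30.9 and 43.3 at ZT18. Every dark library from ZT11.5 on, at 20.5 or more, was above every library of ZT0 and ZT3, at 17.2 or less.

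**Figure D2:**
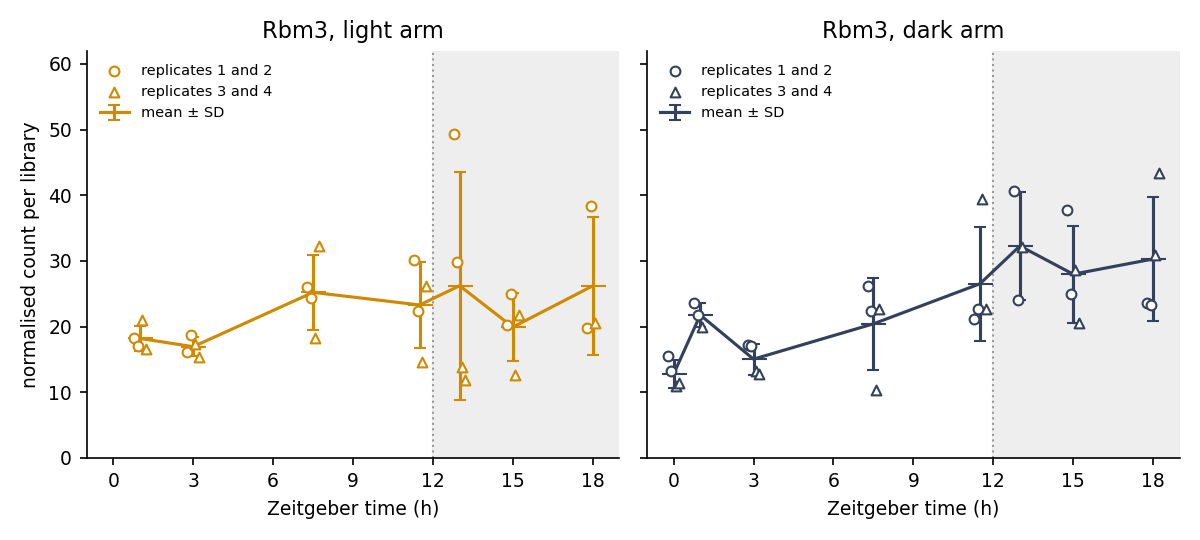
Normalised count of Rbm3 in each library (circles, replicates 1 and 2; triangles, replicates 3 and 4) against zeitgeber time in hours, in the light arm on the left and the dark arm on the right, with the mean ± SD of each group; grey marks the time after ZT12. In the light arm the group means stay between 16.9 and 26.2, and in the dark arm the highest is 32.3 at ZT13 and the lowest 12.8 at ZT0.

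The change of Rbm3 over the light times did not pass the test (limma adjusted p = 0.68), and its change over the dark times did (limma adjusted p = 0.016, rank 280 of 10526). Among dark groups the highest mean was 2.53 times the lowest (32.3 ± 8.24 at ZT13, SD, n = 3, and 12.8 ± 2.09 at ZT0, SD, n = 4). Among light groups that ratio was 1.55. All neighbours in the order of group means overlapped, in each arm. A 24 h cosine had an amplitude of 0.16 ± 0.12 in the light arm (SE; limma adjusted p = 0.66) and of 0.47 ± 0.10 in the dark arm with a peak at ZT14.7 ± 1.0 h (SE; limma adjusted p = 0.0043).

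These results do not show that Rbm3 behaved differently in the arms. The difference between their cosines had an adjusted p of 0.77 (unadjusted p = 0.052). The light-dark difference that varied with time, a moderated F test over the 7 shared times, had an adjusted p of 0.91 for Rbm3 and 0.65 for Cirbp (unadjusted p = 0.034), with 0.181% of genes called. No step between neighbouring times passed the test for Rbm3. Its steepest was in the dark arm, 21.8 ± 1.85 at ZT1 (SD, n = 3), against 12.8 ± 2.09 at ZT0 (SD, n = 4), a log2 difference of 0.73 with an unadjusted p of 0.023. Both SDs were smaller than counting alone would give. The coefficients of variation were 8.51% at ZT1 and 16.4% at ZT0, against 20.25% and 24.86% from counting.

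Light on the day of collection did not give a called difference for Cirbp or Rbm3 at any of the 7 shared times. Genes called, in either direction, made up 0.257% at ZT1, 0.124% at ZT3, 0% at ZT7.5, 0.152% at ZT11.5, 0.038% at ZT13, 0% at ZT15 and 0% at ZT18. Where limma called 0 genes, edgeR on recovered reads also called 0. DESeq2 called 0 at ZT7.5, 0 at ZT15 and 1 at ZT18. Unadjusted p-values under 0.05 were found by limma for 613 genes at ZT7.5, 464 at ZT15 and 964 at ZT18.

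The widest gap for Cirbp in favour of light was at ZT7.5. Its libraries there measured 361 to 457 in the light arm and 281 to 353 in the dark arm and did not overlap. The log2 difference was 0.38 (95% interval 0.05 to 0.72), with an unadjusted p of 0.026 and a limma adjusted p of 0.81. Split by replicate number, it was 0.54 between the replicates 1 and 2 of each arm and 0.22 between the replicates 3 and 4.

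At ZT13 Cirbp averaged 325 ± 124 in the light arm (SD, n = 4) and 442 ± 91.9 in the dark arm (SD, n = 3). The log2 difference was -0.50 (95% interval -0.86 to -0.14), with an unadjusted p of 0.0077 and a limma adjusted p of 0.41. Split by replicate number, it was -0.19 between the replicates 1 and 2 of each arm, which did not overlap (438 and 427 with light, 477 and 511 without). It was -0.63 between replicates 3 and 4 (224 and 213) and the single dark replicate 3 (337). Without replicates 3 and 4 of light ZT13, left out after their values were seen, and with all dark libraries kept, it was -0.01. At the other 5 times the log2 difference of Cirbp lay between -0.21 and 0.10, and its 95% intervals reached from -0.54 to 0.44.

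For Rbm3 the log2 difference, light minus dark, lay between -0.48 and 0.34. It was 0.17 at ZT3 and 0.34 at ZT7.5, and negative at the other 5 times. The 95% intervals reached from -1.11 at ZT13 to 0.92 at ZT7.5, and each of the 7 held 0. At ZT13 the difference was 0.27 without replicates 3 and 4 of light ZT13, against -0.48 with them.

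**Figure D3:**
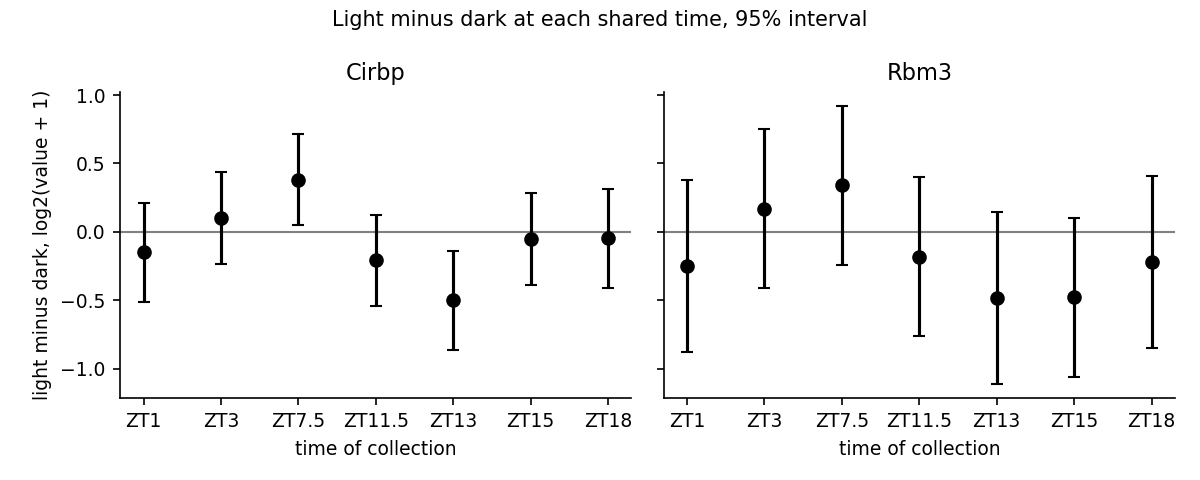
Light minus dark difference of Cirbp (left) and Rbm3 (right) on the log2(value + 1) scale at the 7 shared times, with 95% intervals from limma. For Cirbp the interval lies above 0 at ZT7.5 (0.05 to 0.72) and below 0 at ZT13 (-0.86 to -0.14), before adjustment over genes; for Rbm3 every interval holds 0.

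The night libraries (ZT13, ZT15 and ZT18) were also set against the day libraries (ZT3, ZT7.5 and ZT11.5) within each arm. Rbm3 had a median of 20.5 in 11 night libraries and 20.5 in 12 day libraries of the light arm, and of 28.7 in 11 night libraries and 21.8 in 12 day libraries of the dark arm. The light arm gave a log2 difference of 0.06 (limma adjusted p = 0.925), where 1.03% of genes were called (0.494% higher and 0.532% lower at night). The dark arm gave 0.57 ± 0.17 (SE; limma adjusted p = 0.059, unadjusted p = 0.0017), where 2.52% of genes were called (1.72% higher and 0.798% lower at night).

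The dark result for Rbm3 lay at the threshold. It was called by edgeR on recovered reads (adjusted p = 0.048) and with terms for replicates 3 and 4 against 1 and 2 (adjusted p = 0.039). It was also called when dark ZT7.5 replicate 1, dark ZT11.5 replicate 3 or dark ZT15 replicate 4 was left out (adjusted p of 0.046, 0.043 and 0.046). DESeq2 gave no adjusted p for it. Of the 7 libraries with under 2 M reads, 5 were dark night libraries. Without those 7 the difference was 0.69, with 1 library, replicate 1, left at dark ZT13 and replicates 2 and 3 at dark ZT18. Shallow libraries and replication were thus lost together. Split by replicate number, night minus day in the dark arm was 0.42 for replicates 1 and 2 and 0.72 for replicates 3 and 4.

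The highest group mean of Cirbp was near the day-night boundary in the dark arm (442 at ZT13) and at ZT7.5 in the light arm (410). Its contrast of night with day passed the test in neither arm. The light arm gave a log2 difference of -0.08 (limma adjusted p = 0.82), and the dark arm gave 0.21 (limma adjusted p = 0.23). Between the arms, night minus day differed by -0.29 for Cirbp and by -0.50 for Rbm3, light minus dark. Each had an adjusted p of 0.64 (unadjusted p of 0.042 for Cirbp and 0.043 for Rbm3), with 0.057% of genes called. Without replicates 3 and 4 of light ZT13 these differences were -0.13 for Cirbp and -0.25 for Rbm3.

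Libraries of light ZT13 differed from each other in both genes at once. Replicates 3 and 4 had 224 and 213 for Cirbp and 13.8 and 11.9 for Rbm3. Replicates 1 and 2 had 438 and 427 for Cirbp and 49.3 and 29.9 for Rbm3. The same order held for Malat1, at 89.9 and 91.2 in replicates 3 and 4, against 317 and 198 in replicates 1 and 2. Summed levels of the 5 hippocampus markers ran the other way, at 1187 and 1550 in replicates 3 and 4, against 985 and 925 in replicates 1 and 2. None of those markers was at 0 in every library, and the sum ran from 925 to 1550 over all libraries. The hippocampus list was not alone in this. Sums of excitatory neuron markers (11903 and 13387, against 10602 and 10589) and microglia markers (1723 and 1919, against 1475 and 1513) also ran that way. So did those of the oligodendrocyte, oligodendrocyte precursor, endothelial and blood lists. Interneuron markers ran with Cirbp, at 4415 and 4493 in replicates 3 and 4, against 4994 and 5081. The part of tissue composition or of RNA quality in this split was not tested.

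Averaged over the light arm, replicates 3 and 4 had less Cirbp, unevenly between times. At ZT3 and ZT11.5 their mean lay close to that of replicates 1 and 2 (204 against 207 at ZT3, 378 against 372 at ZT11.5). Their log2 difference from replicates 1 and 2 was -0.29 (limma adjusted p = 0.013), a contrast that called 10.1% of genes, and -0.40 for Rbm3 (limma adjusted p = 0.078). Without the 4 libraries of light ZT13 it was -0.17 for Cirbp (limma adjusted p = 0.2, unadjusted p = 0.035). For Rbm3 it was then -0.20 (limma adjusted p = 0.46), and 6.82% of genes were called. In the dark arm it was -0.12 for Cirbp (adjusted p = 0.64) and -0.10 for Rbm3 (adjusted p = 0.88), with 0.722% of genes called. What the replicate numbers stand for beyond their order is not given in the labels, and apart from light ZT13 they cannot be told apart from the Xist split.

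Across all 57 libraries, deviations of Cirbp and Rbm3 from their group means rose and fell together, with a Pearson r of 0.51 (permutation p = 0.013) and a Spearman rho of 0.37 (permutation p = 0.025). The permutation p-values in this paragraph, for both coefficients and over several sets of libraries, were not adjusted. Leaving out light ZT13 replicates 1 and 4, the libraries farthest from the median of Cirbp, gave r = 0.37 (permutation p = 0.042) and rho = 0.30 (permutation p = 0.077). Pearson r was 0.40 over replicates 1 and 2 alone (30 libraries, permutation p = 0.12) and 0.46 over replicates 3 and 4 alone (27 libraries, permutation p = 0.041). The deviations were still from the mean of all libraries of a group. Differences between replicates 1 and 2 and replicates 3 and 4 thus remain in both values. Without the 4 libraries of light ZT13 Pearson r was 0.27 (permutation p = 0.086), so the relation rests in part on that group.

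**Figure D4:**
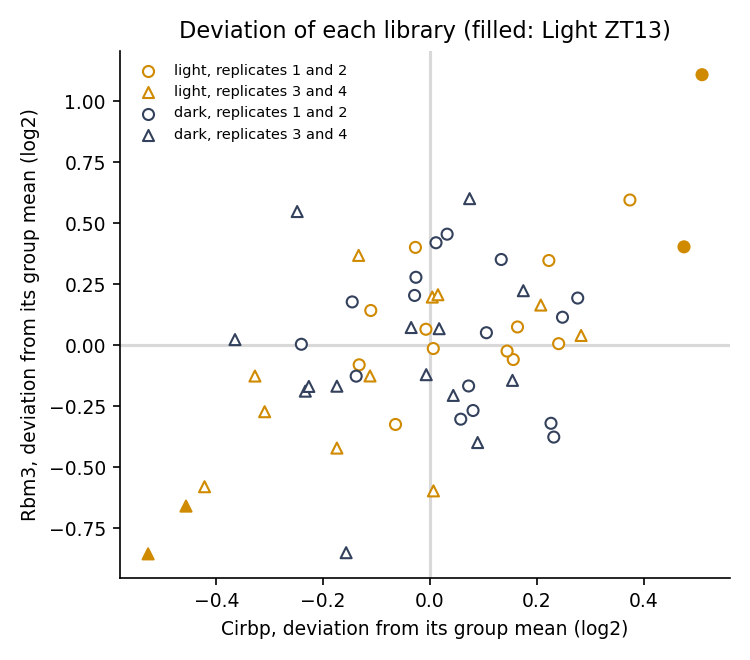
Deviation of Rbm3 from its group mean against that of Cirbp, both in log2 units, 1 point per library; circles are replicates 1 and 2, triangles replicates 3 and 4, orange the light arm and blue the dark arm. The filled points, the 4 libraries of light ZT13, lie at the far corners of the cloud, and r is 0.51 with them and 0.27 without them.

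Genes with a course like that of Cirbp over the 15 group means were ranked among 10160 tested genes with proper names by Pearson correlation on the log2 scale, as a description. The nearest were Wdr6 (0.953), Actb (0.933), which encodes the cytoskeletal beta-actin, Pgls (0.930), an enzyme of the pentose phosphate pathway, Smyd2 (0.926), a lysine methyltransferase, and Eml2 (0.925), a microtubule-associated protein. Wdr6 averaged 507 ± 41.4 at light ZT7.5 and 325 ± 10.3 at light ZT1 (SD, n = 4 each), and 507 ± 47.8 at dark ZT13 and 352 ± 40.8 at dark ZT1 (SD, n = 3 each). It changed over the light times (limma adjusted p = 1.3e-05) and over the dark times (limma adjusted p = 5.3e-06). Actb and Eml2 also passed both tests, whereas Pgls and Smyd2 passed neither. Rbm3 came 393rd in this ranking, with a correlation of 0.696.

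The courses most opposed to that of Cirbp belonged to Rapgef2 (-0.945), an exchange factor for Rap GTPases, Syt7 (-0.940), a synaptotagmin that senses calcium at the synapse, and Lman2l (-0.915), a lectin of the secretory pathway. Syt7 changed over the light and the dark times (limma adjusted p of 0.0066 and 0.0014), Lman2l over the light times (limma adjusted p = 0.0028, with 0.057 over the dark times), and Rapgef2 over neither. As for all genes tested, limma called none of them for a difference between the arms' cosines. Their other comparisons of the arms are not given here.

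Nearest to Rbm3 were Spg7 (0.883), a mitochondrial protease, Sun2 (0.861), a protein of the inner nuclear membrane, Pigt (0.846), part of the complex that attaches lipid anchors, Rps3a1 (0.800), a ribosomal protein, and Lrrk1 (0.799), a kinase. Spg7 alone among them passed a test over the dark times (limma adjusted p = 0.004), and none passed over the light times. The most opposed were Rbm4b (-0.876), another RNA-binding protein, Jagn1 (-0.876) and Dmd (-0.814), which encodes dystrophin, and none of the 3 passed either test. Cirbp came 64th among the genes like Rbm3.

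Heat shock chaperones, the proteins raised when Cirbp is lowered by warming in cultured cells, were measured beside it. Of 20 listed genes 19 were tested, and 6 changed over the light times (3.81% of all genes) and 10 over the dark times (6.52% of all genes). Hsph1, a co-chaperone of the Hsp110 family, averaged 538 ± 86.6 at ZT7.5 and 772 ± 131 at ZT1 in the light arm (SD, n = 4 each), and 485 ± 21.7 at ZT13 and 803 ± 51.6 at ZT1 in the dark arm (SD, n = 3 each). Its limma adjusted p was 0.00049 over the light times and 1.2e-05 over the dark times. Hsph1 was thus high in the hours when Cirbp was low.

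The fitted peaks of the called chaperones did not all fall at the same hour. In the cosine fits 6 were called in the light arm (3.14% of all genes), with peaks from ZT19.9 to ZT1.1. In the dark arm 9 were called (5.89% of all genes), with peaks from ZT18.9 to ZT5.8. Hsph1 had its fitted peak at ZT0.8 in the light arm and ZT2.1 in the dark arm. For Dnajb1, a co-chaperone of Hsp70, the fitted peak was at ZT21.8 in the light arm and ZT18.9 in the dark arm. Some of these hours lie outside the sampled span.

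Night and day also split the chaperones. With light 1 of 19 was called, Hspa1b, an inducible Hsp70 gene (log2 night minus day 0.50, limma adjusted p = 0.013), where 1.03% of all genes were called. That call was lost without replicates 3 and 4 of light ZT13. Without light 5 of 19 were called (2.52% of all genes), 2 higher and 3 lower at night, with a median log2 difference of -0.04 over the list and -0.01 over all genes. Dnajb1 (0.32, limma adjusted p = 0.0034) and Hspa1b (0.45, limma adjusted p = 0.017) were higher at night, and Hspa4l (-0.42, limma adjusted p = 0.0021) and Hsph1 (-0.28, limma adjusted p = 0.0069) lower. Hspa1b has a near-identical copy, Hspa1a, so its reads may be divided between the 2. Without the 7 libraries under 2 M reads, 0 of these genes were called in the dark arm for night minus day, and 6 in place of 10 changed over the dark times. Fewer of all genes were called there too.

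**Figure D5:**
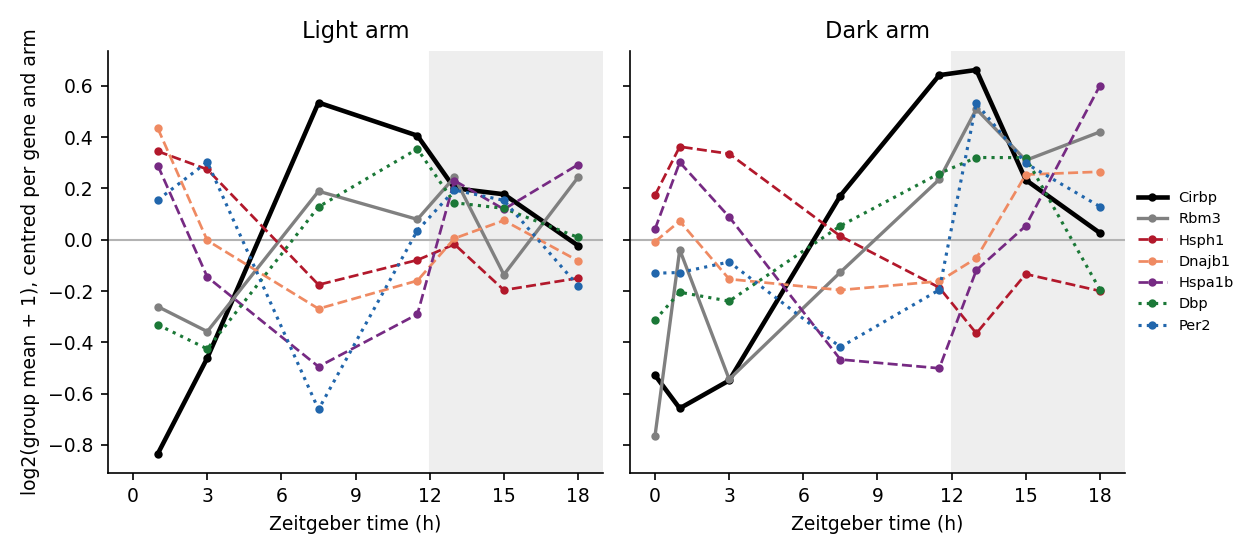
Courses of Cirbp, Rbm3, 3 heat shock genes (Hsph1, Dnajb1, Hspa1b) and 2 clock genes (Dbp, Per2) as log2(group mean + 1), centred per gene within each arm, against zeitgeber time in hours, in the light arm (left) and the dark arm (right); grey marks the time after ZT12. Cirbp and Dbp are lower at ZT1 and ZT3 than at ZT11.5 in each arm. Hsph1 is high at ZT1 and low later, at 538 at light ZT7.5 and 485 at dark ZT13.

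Clock genes marked the hours of the day. Of 18 listed 15 were tested, and 5 changed over the light times (3.81% of all genes) and 7 over the dark times (6.52% of all genes). Dbp, an output factor of the clock, had a fitted peak at ZT12.1 in the light arm and ZT11.7 in the dark arm, beside ZT10.8 and ZT12.1 for Cirbp in the same arms. Per3, a repressor within the clock, had its peak at ZT15.0 in the light arm and ZT14.6 in the dark arm. Dbp had a log2 amplitude of 0.34 (light) and 0.31 (dark), beside 0.63 (light) and 0.60 (dark) for Cirbp; the difference between the genes was not tested. At night against day, 2 of 15 clock genes were higher in the light arm, Per3 and Tef (0.494% of all genes), and 4 in the dark arm, Tef, Per2, Cry1 and Per3 (1.72% of all genes). The light count was 0 in a fit to the groups compared only, which called 43 of all genes, against 108 in the main fit. It was also 0 without light ZT18 replicate 3. It was 1 with no filter, without the libraries under 2 M reads, without replicates 3 and 4 of light ZT13, and without any of 7 other single libraries. Without the libraries under 2 M reads the dark count was 0, and 4 in place of 7 changed over the dark times. Fewer of all genes were called there too. DESeq2 called 9 clock genes over the light times, and 596 genes over the whole table, where limma called 401.

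Other RNA-binding proteins with RNA-recognition motifs or related domains were tested for 20 of 24 listed genes, and 4 changed over the light times (3.81% of all genes) and 4 over the dark times (6.52% of all genes). They did not follow Cirbp as a group. Hnrnpm, a splicing factor, averaged 333 ± 33.6 at ZT7.5 and 434 ± 7.90 at ZT1 in the light arm (SD, n = 4 each), and had its fitted peak at ZT22.4 there and at ZT23.1 in the dark arm. Hnrnpl changed over the light times (limma adjusted p = 0.004) and Hnrnpdl over the dark times (limma adjusted p = 0.00061). The count over the light times was 1 in a fit to the groups compared only, which called 170 of all genes, against 401 in the main fit. It was 2 with no filter and 2 without any of 4 single libraries (replicates 2 and 4 of ZT1, replicate 4 of ZT7.5 and replicate 1 of ZT11.5). Over the dark times it was 2 with no filter, without the libraries under 2 M reads and without any of 6 single libraries (replicate 2 of ZT1, replicates 1, 2 and 3 of ZT11.5, replicate 2 of ZT13 and replicate 2 of ZT18).

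Splicing regulators known from cultured cells to respond to body temperature, the Clk kinases and SR proteins among them, were tested for 16 of 17 listed genes, and 2 changed over the light times (3.81% of all genes) and 3 over the dark times (6.52% of all genes). The light count was 1 under 5 of 12 alternatives, which were no filter, TMM rescaling, edgeR, the groups compared only and libraries under 2 M reads left out, and in 21 of 27 fits that left out 1 library. Over the light times edgeR called 404 of all genes and the groups compared only 170, against 401 in the main fit. Tra2a, which encodes a splicing activator, averaged 72.8 ± 8.12 at ZT7.5 and 123 ± 18.9 at ZT1 in the light arm (SD, n = 4 each), with a limma adjusted p of 0.0015 over the light times and 0.0093 over the dark times. Srsf5, an SR protein, was lower at night with light (log2 -0.21, limma adjusted p = 0.028) and without it (-0.22, limma adjusted p = 0.0094). The dark call was lost without the libraries under 2 M reads. The light call was lost in the groups compared only, without replicates 3 and 4 of light ZT13, and without any of 4 single libraries (light ZT3 replicate 1, ZT11.5 replicate 1, ZT13 replicate 4 and ZT18 replicate 3). None of the 5 tested of 10 genes drawn from the literature on Cirbp and Rbm3, which include Ntrk2 and Rtn3, changed over the light or the dark times by limma. DESeq2 called 1 of them over the light times, and 596 genes over the whole table.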

How the data were processed

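RNA from mouse visual cortex was sequenced by MARS-Seq in 57 libraries. The deposited values are a signal per gene, normalised counts made by the authors; per the submitters' processing notes, cutadapt, STAR 2.5.2b, DESeq2 and the mm10 genome were used. Whether unique molecular identifiers were collapsed is not recorded in the labels. Values in each library were whole multiples of what 1 read was worth (100% of non-zero values within 0.01 of a whole number), so reads and depths were recovered, and these reads entered edgeR 4.0.16 and DESeq2 1.42.0 as alternatives. In the recovered reads edgeR called 706 genes over the dark times and 404 over the light times. The 27 rows named by dates, 0.294 to 0.363% of reads, were left out.

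A gene entered the tests if its values averaged 10 or more, which held for 10526. limma 3.58.1 (R 4.3.3, trend option on) was fitted to log2(value + 1), a scale that understates the change of low genes, with the spread of each gene pooled over the 15 groups. The contrasts were light minus dark at each shared time, F tests over the times of each arm, the interaction of arm and time, steps between neighbouring times, night minus day, and a 24 h cosine per arm. Tests were two-sided, with Benjamini-Hochberg adjustment over all genes tested and a threshold of 0.05. P-values of the contrasts and F tests between groups rest on the spread between libraries of a group. In the cosine fits the spread was taken around the fitted curves, so it also holds departures of group means from them. Permutation p-values came from library labels permuted within groups. Intervals of the differences are 95%. The fits were tested on simulated data.

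The members, gene lists and tests were chosen with earlier results of these data known. Named were Cirbp and Rbm3, up to 4 called list members with the smallest p, and for each of Cirbp and Rbm3 the 5 genes most and 3 least correlated over the 15 group means. Marker genes are named only as checks of the tissue or beside a result. Some list members that this rule names are not reported here. Alternatives were a pseudocount of 5, no filter, a minimum mean of 50, TMM rescaling, the groups compared only, the replicate number as a block, terms for replicates 3 and 4 and for Xist above 20, libraries under 2 M reads left out, ZT0 as the start of the light arm, and each library left out in turn. Leaving out both low libraries of light ZT13, and all 4 of that group for the contrast of replicate numbers, was added after seeing the data. No replicate pair was a copy: 81 pairs had a chi-square per degree of freedom of 2.15 to 7.01. Gene positions are from GENCODE M21 and the upstream sequence from RefSeq.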

Additional observations from a re-analysis of the deposited data

Results flagged for a closer look

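In 1 group of each gene, a library lay apart from the other 3 by more than Dixon's 95% critical value. Cirbp had its lowest dark ZT11.5 library at 370.4, beside 456 to 459 in the others. Rbm3 had its highest dark ZT11.5 library at 39.43, beside 21.1 to 22.7 in the others. These are 2 flags among 24 groups of 4 libraries examined, and chance alone flags about 1 in 20. They fell on different libraries of that group, replicate 4 for Cirbp and replicate 3 for Rbm3.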

How the results depend on the processing

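Over light minus dark, the F tests, night minus day and the cosines, 343 of 350 values under alternatives other than leaving out 1 library kept their direction and side of the threshold; a minimum mean of 50 gives no value for Rbm3. Night minus day of Rbm3 in the dark arm became called with edgeR (0.606) and with terms for replicates 3 and 4 (0.561), had no adjusted p in DESeq2 (0.601), and ran from 0.472 to 0.633 with each library left out. Light minus dark of Cirbp at ZT15 (main -0.05) reversed with terms for replicates 3 and 4 (0.032) and without libraries under 2 M reads (0.117). Without light ZT13 replicates 3 and 4, light minus dark of Rbm3 at ZT13 (0.274) and night minus day of Cirbp in the light arm (0.088) reversed. Other reversals were steps between neighbouring times that passed no test. Without those same 2 libraries, the light steps became 0.205 for Cirbp and 0.744 for Rbm3 at ZT13 against ZT11.5, and -0.455 for Cirbp at ZT15 against ZT13. For the dark step of Cirbp at ZT13 against ZT11.5 the replicate block gave -0.021, terms for replicates 3 and 4 -0.017, and a term for Xist -0.020. The light step of Rbm3 at ZT13 against ZT11.5 was 0.010 with a pseudocount of 5, 0.214 with edgeR and 0.058 with the Xist term. The light step of Cirbp at ZT15 against ZT13 was -0.024 with edgeR and -0.035 with the Xist term, and the dark step of Rbm3 at ZT18 against ZT15 was -0.156 without libraries under 2 M reads.

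With each library left out, values that changed direction ran as follows. Light minus dark of Rbm3 at ZT11.5 ran from -0.313 to 0.021. For Cirbp it ran from -0.128 to 0.087 at ZT15 and from -0.232 to 0.110 at ZT18. Night minus day of Rbm3 in the light arm ran from -0.060 to 0.158. Dark steps ran from -0.009 to 0.236 (Cirbp, ZT3 against ZT1), -0.112 to 0.186 (Cirbp, ZT13 against ZT11.5) and -0.084 to 0.251 (Rbm3, ZT18 against ZT15). Light steps ran from -0.268 to 0.071 (Rbm3, ZT11.5 against ZT7.5), -0.383 to 0.272 (Rbm3, ZT13 against ZT11.5), -0.139 to 0.207 (Cirbp, ZT15 against ZT13) and -0.481 to 0.173 (Rbm3, ZT15 against ZT13). The causes were not tested.

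The replicate numbers did not pair libraries: of 25 same-numbered pairs 5 correlated above 0.1 (-0.201 to 0.447). With the replicate block 755 genes changed over the dark times, against 686 without it, and it changed no call of Cirbp or Rbm3. Gene counts that moved by more than 1.5 times, other than with 1 library left out, were 1081 by DESeq2 and 373 without libraries under 2 M reads over the dark times (main 686), 170 in the groups compared only over the light times (main 401), 3 without libraries under 2 M reads for night minus day in the dark arm (main 265), and 228 without them for the dark cosine (main 620). For night minus day in the light arm they were 67 with no filter, 43 in the groups compared only and 68 without libraries under 2 M reads (main 108). For the arm difference that varied with time they were 39 by DESeq2 and 12 without those libraries (main 19). For light minus dark they were 4, 23 and 5 at ZT3 with no filter, DESeq2 and replicate terms (main 13), 41 and 10 at ZT11.5 with DESeq2 and replicate terms (main 16), 7, 2, 1 and 8 at ZT13 with no filter, the groups compared only, libraries under 2 M reads left out and light ZT13 replicates 3 and 4 left out (main 4), and 7, 1 and 1 at ZT18 with no filter, DESeq2 and the groups compared only (main 0). For night minus day in the dark arm, 0 chaperones and 0 clock genes were called without those 7 libraries, against 5 and 4 with them. TMM rescaling moved the median gene by at most 0.02 on the log2 scale. The few reads of Rbm3 limit what its tests can detect.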
